A study of Homo sapiens with 6 samples.

Results

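The 10 genes described here, of 58381 gene IDs in the deposited table, act in the polarity, junctions and surface proteolysis of epithelial cells. They were taken by symbol through the GENCODE 29 annotation and encode polarity proteins (CRB3, PATJ, LLGL2), tight junction proteins (MARVELD2, MARVELD3), membrane trafficking proteins (RAB25, AP1M2, EPN3) and membrane serine proteases (ST14, PRSS8). All 10 were found and all 10 passed the filter on low values, a mean of at least 10 normalized counts. MCF10AT1 is a human breast epithelial line derived from a mouse xenograft of MCF10A cells that carried activated HRAS. Cells grew with horse serum, insulin, EGF, cholera toxin and hydrocortisone and were sorted with antibodies to CD24 and CD44. The CD24low fraction, gated as CD44high, and the CD24high fraction, gated as CD44 positive, had 3 libraries of rRNA-depleted total RNA each. Both fractions come from this single line, and the labels do not say whether replicates were separate cultures. The p-values therefore reflect the spread among the sequenced libraries, and that spread may be technical.

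Epithelial cells keep an apical and a basolateral surface apart. The Crumbs complex, with CRB3 and the scaffold PATJ, marks the apical side, and the Scribble module, with LLGL2, acts on the basolateral side. MARVEL proteins sit in the tight junction between the domains, while RAB25 and the adaptor subunit encoded by AP1M2 direct membrane cargo. AP1M2 is known for sorting to the basolateral surface, so not every trafficking gene here is apical. Matriptase, encoded by ST14, and prostasin, encoded by PRSS8, are paired surface proteases that act in barrier formation.

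Libraries held 16691162 to 27293177 recovered reads. Ribosomal RNA genes took 7.15%, 7.07% and 1.97% of reads in CD24low replicates 1, 2 and 3, against 1.30%, 2.27% and 10.2% in CD24high replicates 1, 2 and 3. CD24low replicate 3 stood apart from the other CD24low libraries for these genes. CD24 itself had 588, 329 and 1370.3 normalized counts in CD24low replicates 1, 2 and 3, against 4043, 2325 and 5687 in the CD24high replicates in the same order, although the reads of CD24 can be shared with processed copies. Of 8 epithelial marker genes (EPCAM, CDH1, TP63 and 5 keratin genes), all were above the filter in both fractions. Of 13 fibroblast, leukocyte and endothelial markers, 4 passed the filter (COL1A1, DCN, CD68 and PECAM1), each with a positive difference. None was called by limma, DESeq2 or edgeR (1 at an unadjusted limma p below 0.05, DCN). The summed level of all 13 markers was 1195 to 4299 normalized counts in CD24low and 248 to 798 in CD24high libraries. Most of that sum in the CD24low libraries was DCN, the matrix proteoglycan decorin. DCN had a difference of 4.16, the largest of the 4, and its groups did not overlap. COL1A1 had 28 to 115 reads in CD24low and 22 to 30 in CD24high libraries (difference 1.01), CD68 had 51 to 123 in CD24low and 34 to 74 in CD24high libraries (0.54), and PECAM1 had 119 to 356 in CD24low and 97 to 398 in CD24high libraries (0.31), all with overlap. LUM had 0 reads in every library and COL1A2, PTPRC and VWF stayed under 3 reads in each. The part of these cells or genes in the results below was not tested.

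All 10 genes had a lower mean in CD24low than in CD24high cells, by a log2 difference between -1.20 and -0.66, where 51.0% of all genes tested had a negative difference. Each difference subtracts CD24high from CD24low after log2 (normalized count + 1). The median over the 10 was -0.75, beside -0.0066 over the 16047 genes tested. None passed limma's test with Benjamini-Hochberg adjustment over all genes (adjusted p 0.155 to 0.299), where the background was 0% of genes. At an unadjusted limma p below 0.05, 10 of 10 were lower, against 7.15% of all genes tested. The 10 genes were chosen with earlier results of these data known, so the shares over all genes are given for scale and are not a test. DESeq2 on recovered reads called 3 of 10 lower (EPN3, PATJ and AP1M2), against 1.15% of genes (2.51% in either direction). EdgeR called 0, and 10 were lower at an unadjusted edgeR p below 0.05, against 7.50% of genes. Without CD24low replicate 3, the highest CD24low library for each of the 10, limma called 9 of 10 lower, all but CRB3, against 1.15% of genes. With any other library left out instead, limma called 0 of 10. The 8 epithelial marker genes were lower on average too, 8 of 8, with a median difference of -0.62. None was called by limma (5 lower at an unadjusted p below 0.05) and DESeq2 called CDH1 (difference -0.90) and TP63 (-1.29) lower, while 5 of the 8 did not overlap between groups.

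**Figure D1:**
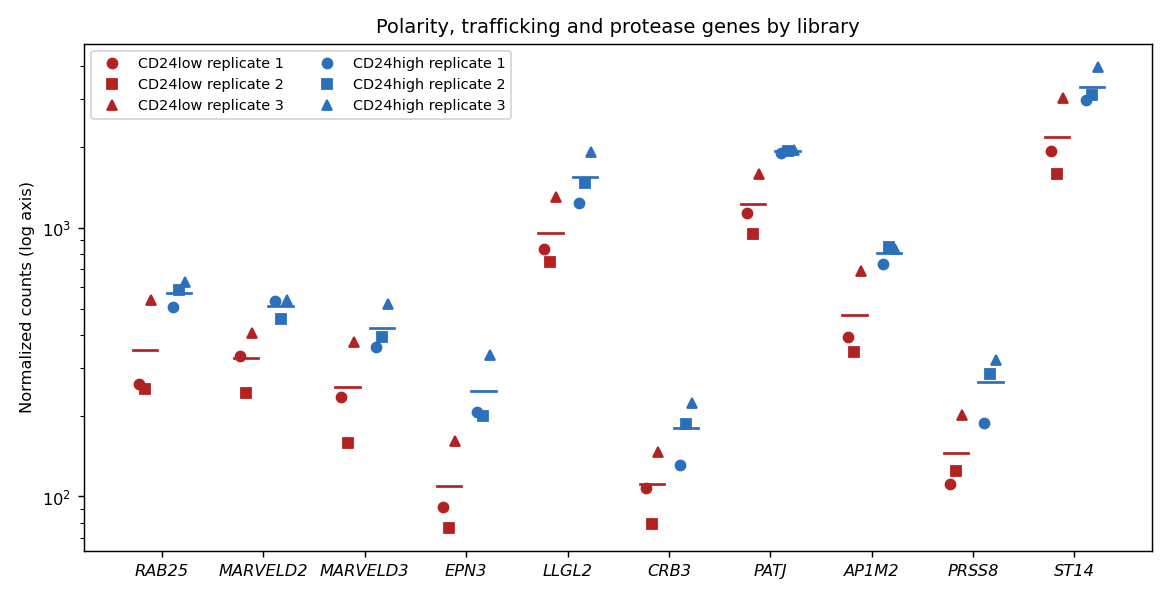
Normalized counts of the 10 genes in each of the 6 libraries, on a log axis, with CD24low libraries left (red) and CD24high libraries right (blue). Symbols mark replicate numbers and bars mark group means of 3 libraries. For each gene CD24low replicate 3 is the highest of the CD24low libraries.

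The size of the difference was uneven among the CD24low libraries. Relative to the CD24high mean of each gene, the 10 genes lay at 37.2% to 65.3% in CD24low replicate 1 and at 31.0% to 49.5% in CD24low replicate 2, but at 65.1% to 94.3% in CD24low replicate 3. CD24low replicate 2 was the lowest of all 6 libraries for 9 genes, and replicate 1 for PRSS8. CD24high replicate 3 was the highest for 9 genes, and CD24high replicate 2 for AP1M2. The groups did not overlap for 4 of 10 genes (MARVELD2, EPN3, PATJ and AP1M2), against 9.32% of genes tested that were lower without overlap. In bulk RNA, fewer cells with a transcript and less transcript per cell cannot be told apart.

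The difference was larger in libraries rich in rRNA reads for all 10 genes. Between CD24low replicates 1 and 2 and CD24high replicate 3, with rRNA shares over 5%, the median difference was -1.27. Between CD24low replicate 3 and CD24high replicates 1 and 2, with shares under 5%, it was -0.14. The sign was negative for 10 of 10 genes in both. With shares under 5%, however, the values were very small for MARVELD3 (-0.0045), ST14 (-0.0084) and RAB25 (-0.010). Each of these comparisons has a single library on one side, so neither was tested, and rRNA share cannot be told apart from these single libraries.

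**Figure D2:**
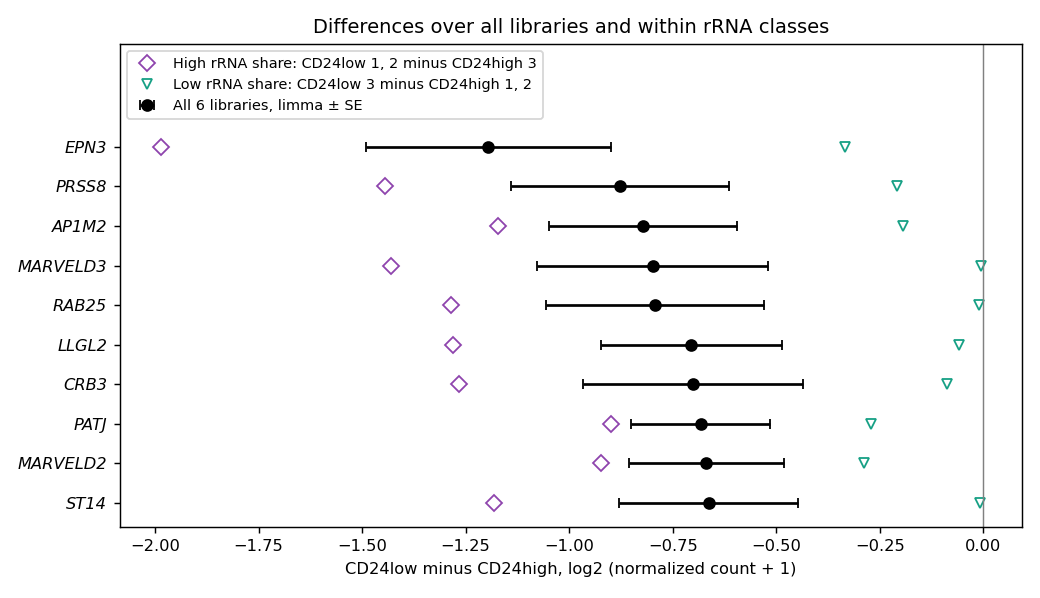
Log2 differences, CD24low minus CD24high, for the 10 genes. Black points are limma estimates over 6 libraries with standard errors, diamonds the high rRNA share libraries and triangles the low rRNA share libraries. The triangles lie between -0.33 and -0.0045 and the diamonds between -1.99 and -0.90.

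The apical polarity genes CRB3 and PATJ were both lower in CD24low cells. CRB3 (ENSG00000130545.15, chromosome 19, 6463777 to 6467221, plus strand, hg38), the small transmembrane Crumbs protein of most epithelia, had 108, 79.3 and 147 normalized counts in CD24low replicates 1, 2 and 3, against 131, 186 and 224 in the CD24high replicates. CD24low replicate 3 lay above CD24high replicate 1, so the groups overlapped. The difference was -0.70 (SE 0.27) with a limma adjusted p of 0.299, the largest of the 10. It was -0.92 without CD24low replicate 3 and -0.48 without CD24low replicate 2. Its counts were low, at 83 to 188 reads per library. The other Crumbs genes were nearly silent: CRB1 had 0 reads in every library, which allows up to 2.49 to 4.38 normalized counts for counting error alone, and CRB2 had 1 read in all.

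PATJ (ENSG00000132849.20, chromosome 1, 61742406 to 62178675, plus strand), a scaffold with many PDZ domains, had 1136, 949 and 1582 normalized counts in CD24low replicates 1, 2 and 3. In CD24high replicates 1, 2 and 3 it had 1886, 1931 and 1939. The CD24high libraries were close together, and every CD24low library lay below them. It differed by -0.68 (SE 0.17), with adjusted p-values of 0.155 in limma and 0.019 in DESeq2. MPDZ, a related PDZ scaffold, had a difference of the opposite sign, with 341, 468 and 266 normalized counts in CD24low and 251, 239 and 248 in CD24high libraries (difference 0.50, limma adjusted p = 0.31).

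Sequences upstream of CRB3 and PATJ are shown because ZEB and Snail proteins, repressors known to act on epithelial polarity genes, bind the E-box CAGGTG. Sequences are from RefSeq on GRCh38.p14, which lists 5 of the 10 genes among the promoters used here. The letters CAGGTG or their reverse complement CACCTG, on either strand, were found within 250 bases upstream of the RefSeq start in 4 of these 5 (RAB25, CRB3, PATJ and AP1M2) and in 17.5% of all 35116 promoters. CRB3 held 5 matches, a number that 0.074% of promoters reach, and PATJ held 2, which 2.53% reach. Capitals mark the matches, and the 4 CRB3 stretches (chr19:6464041-6464070, chr19:6464112-6464141, chr19:6464170-6464199 and chr19:6464207-6464236, plus strand) and the 2 PATJ stretches (chr1:61742280-61742404 and chr1:61742438-61742467, plus strand) read 5′ to 3′. The CRB3 stretches and the second PATJ stretch lie inside the longer gene spans of GENCODE. Upstream of CRB3, 193 of the 250 bases (6464021 to 6464213) are annotated as CRB3 exon. The match in CRB3 stretch 4 crosses the end of that exon, and the other CRB3 matches lie within it. Upstream of PATJ all 250 bases are annotated exon, of PATJ or of the lincRNA AC099791.2. A match is a description of letters and not a binding site.
CRB3 stretch 1: tgCAGGTGtaaggtccccctcaCACCTGcg
CRB3 stretch 2: ggggtcccgttaCAGGTGcgcccacagcgc
CRB3 stretch 3: ctcagcgaggctCAGGTGcacaagccggaa
CRB3 stretch 4: ctccCAGGTGagtgactaaactttccgggt
PATJ stretch 1: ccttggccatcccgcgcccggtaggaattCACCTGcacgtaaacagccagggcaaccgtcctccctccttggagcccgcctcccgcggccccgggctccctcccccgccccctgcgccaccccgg
PATJ stretch 2: gggagggcctgcCAGGTGaggcgcggtcac

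LLGL2 (ENSG00000073350.13, chromosome 17, 75525080 to 75575208, plus strand), a basolateral polarity protein of the Scribble module, had 831, 745 and 1295 normalized counts in CD24low replicates 1, 2 and 3. The CD24high replicates had 1236, 1470.0 and 1914. CD24low replicate 3 exceeded CD24high replicate 1, so the groups overlapped, and the difference was -0.71 (SE 0.22, limma adjusted p = 0.22). Its paralog LLGL1 was higher in every CD24low library, with 1486, 1726 and 1224 normalized counts against 1051, 1195 and 1182 in CD24high libraries (difference 0.36, limma adjusted p = 0.31).

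Of 19 tested genes of the PAR, Crumbs and Scribble complexes outside the 10, none was called by limma, edgeR or DESeq2, and at an unadjusted limma p below 0.05 there were 2 higher and 1 lower. Their median difference was -0.06. PARD6B, a PAR complex adaptor, had 150, 178 and 183 normalized counts in CD24low libraries and 285, 234 and 199 in CD24high libraries (difference -0.48, limma adjusted p = 0.29). PRKCZ, an atypical protein kinase C, differed by -0.26 (limma adjusted p = 0.46). Its groups were apart by only 0.69 normalized counts, less than the value of 1 read in any library. MPP5, which encodes the Crumbs complex scaffold PALS1, and SCRIB differed by -0.30 and -0.10, with overlapping groups.

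Both MARVEL genes were lower in CD24low cells. MARVELD2 (ENSG00000152939.15, chromosome 5, 69415065 to 69444330, plus strand) encodes tricellulin, the protein of corners where 3 cells meet. It had 333, 242 and 405 normalized counts in CD24low replicates 1, 2 and 3, against 534, 456 and 539 in CD24high replicates. The groups did not overlap, and the difference was -0.67 (SE 0.19, limma adjusted p = 0.19). DESeq2's adjusted p was 0.051, just outside its threshold of 0.05.

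MARVELD3 (ENSG00000140832.9, chromosome 16, 71626161 to 71642114, plus strand), a tight junction protein of the same family, had 234, 159 and 374 normalized counts in CD24low replicates 1, 2 and 3. The CD24high replicates had 360.1, 391 and 520.2. CD24low replicate 3 lay inside the CD24high range, and the difference was -0.80 (SE 0.28, limma adjusted p = 0.27). It shares 16.6% of its exonic bases with PHLPP2 on the opposite strand, which had 804 normalized counts in CD24low and 740.4 in CD24high cells on average, and the strand setting of the read counting is not given in the sources used here.

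Of 7 tested partners of these junction proteins, 7 had a negative difference, none was called by limma (4 lower at an unadjusted p below 0.05) and 1 was called lower by DESeq2, with a median of -0.46. That gene was F11R, which encodes the junction adhesion molecule JAM-A, with 1602, 1346 and 2035 normalized counts in CD24low and 2631, 2534 and 2276 in CD24high libraries (difference -0.60, DESeq2 adjusted p = 0.023). OCLN, encoding the third MARVEL protein occludin, had 188, 187 and 412 normalized counts in CD24low and 382, 440 and 715 in CD24high libraries, with overlap. LSR, which recruits tricellulin to tricellular corners, differed by -0.25 (limma adjusted p = 0.59).

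The trafficking genes RAB25, AP1M2 and EPN3 were lower in CD24low cells. RAB25 (ENSG00000132698.14, chromosome 1, 156061160 to 156070514, plus strand), an epithelial GTPase of the RAB11 family on recycling endosomes, had 263, 250.3 and 540 normalized counts in CD24low replicates 1, 2 and 3. In CD24high replicates it had 505, 585 and 627. CD24low replicate 3 was within the CD24high range while the other CD24low libraries lay far below it. It differed by -0.79 (SE 0.26, limma adjusted p = 0.25), and by -1.15 without CD24low replicate 3. In the libraries poor in rRNA reads it was -0.010.

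AP1M2 (ENSG00000129354.11, chromosome 19, 10572671 to 10587315, minus strand), the epithelial mu subunit of the AP-1 clathrin adaptor, had 392, 345 and 688 normalized counts in CD24low replicates 1, 2 and 3. The CD24high replicates had 730.2, 849 and 829.9. The groups did not overlap, and the difference was -0.82 (SE 0.23), with adjusted p-values of 0.19 in limma and 0.045 in DESeq2. Its widely expressed paralog AP1M1 rose by DESeq2 (adjusted p = 0.030), with 929.9, 943 and 707 normalized counts in CD24low and 602, 569 and 595 in CD24high libraries (difference 0.53, limma adjusted p = 0.16).

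Upstream of RAB25 there was 1 E-box match of the kind described for CRB3, and upstream of AP1M2 there were 3, a number that 0.464% of promoters reach. They are shown because both genes were among the 4 with a match. The RAB25 stretch is chr1:156061060-156061159 on the plus strand, the AP1M2 stretch is chr19:10587316-10587412 on the minus strand, and capitals mark the matches. Within the same 250 bases the RUNX letters TGTGGT or ACCACA were found in RAB25 and MARVELD2, 2 of 5 promoters, against 10.98% of all promoters. The GC box GGGCGG or CCGCCC was found in 3 of 5, against 42.6%. The GRHL letters AACCGGTT were found in 0 of 5, against 0.117%, and TATAAA or TTTATA in 0 of 5, against 10.7%.
RAB25: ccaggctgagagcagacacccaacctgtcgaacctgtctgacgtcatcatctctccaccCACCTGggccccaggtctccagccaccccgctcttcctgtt
AP1M2: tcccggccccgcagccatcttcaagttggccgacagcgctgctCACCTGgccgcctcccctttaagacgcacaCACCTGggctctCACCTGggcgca

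EPN3 (ENSG00000049283.17, chromosome 17, 50532543 to 50543750, plus strand), an epsin of clathrin-mediated endocytosis, had the largest difference of the 10. It had 91.7, 76.4 and 161 normalized counts in CD24low replicates 1, 2 and 3, against 206, 199.6 and 335 in CD24high replicates, so no CD24low library reached the lowest CD24high one. Its level was 2.29-fold lower in CD24low (difference -1.20, SE 0.30), with a limma adjusted p of 0.155 and a DESeq2 adjusted p of 0.010. EPN3 shares 10.3% of its exonic bases with SPATA20 on the same strand, and SPATA20 differed by 0.32, the other way. The other epsins EPN1 and EPN2 differed by 0.28 and 0.08 with overlapping groups.

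Of 24 tested genes of recycling, apical carriers, AP-1 and epsins outside the 10, none was called by limma (6 lower and 1 higher at an unadjusted p below 0.05). DESeq2 called 3 lower and 1 higher (AP1M1), and the median was -0.11. MAL2, a protein of apical transcytosis, fell by DESeq2, with 3549, 2953 and 4962 normalized counts in CD24low and 7194, 5983 and 7350 in CD24high libraries (difference -0.87, adjusted p = 0.00096). MYO5B, the motor of RAB11 recycling endosomes, fell too by DESeq2 (748, 622 and 1294 normalized counts in CD24low libraries against 1410, 1515 and 2051 normalized counts in CD24high libraries, difference -0.95), as did AP1S3, a small AP-1 subunit (difference -0.71). RAB11A, the widely expressed relative of RAB25, had 1753, 1726 and 2126 normalized counts in CD24low and 2697, 2294 and 2243 in CD24high libraries (difference -0.37, limma adjusted p = 0.25). The AP-1 subunit genes AP1B1, AP1G1 and AP1S1 differed by 0.11, -0.0069 and 0.10, each with overlapping groups.

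The membrane proteases ST14 and PRSS8 were lower in CD24low cells as well. ST14 (ENSG00000149418.10, chromosome 11, 130159562 to 130210376, plus strand), encoding matriptase, had 1921, 1585 and 3022 normalized counts in CD24low replicates 1, 2 and 3, against 2972, 3108 and 3955 in CD24high replicates. CD24low replicate 3 lay just above CD24high replicate 1. The difference of -0.66 (SE 0.22) was the smallest of the 10, with a limma adjusted p of 0.24. In the libraries poor in rRNA reads it was -0.0084. PRSS8 (ENSG00000052344.15, chromosome 16, 31131433 to 31135762, minus strand), encoding the membrane-anchored protease prostasin, had 111, 124 and 201 normalized counts in CD24low replicates and 188, 286 and 321 in CD24high replicates. Its groups overlapped too, and the difference was -0.88 (SE 0.26, limma adjusted p = 0.21).

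Of 16 tested inhibitors, relatives and substrates of these proteases, none was called by limma (5 lower at an unadjusted p below 0.05) and 3 were called lower by DESeq2, with a median difference of -0.35. The lower genes were other serine proteases: TMPRSS11E, with 16.7, 7.64 and 27.4 normalized counts in CD24low and 73.9, 56.3 and 81.8 in CD24high libraries (difference -2.12), TMPRSS4 (-2.00) and PRSS22 (-1.85). Their groups did not overlap, which was a condition of the rule that named them. Reads in CD24low libraries were few, at 8 to 28 for TMPRSS11E, 8 to 15 for TMPRSS4 and 27 to 52 for PRSS22. SPINT1, the main inhibitor of matriptase, had 1219.9, 1162 and 1792 normalized counts in CD24low and 1311, 1696 and 2173 in CD24high libraries (difference -0.31, limma adjusted p = 0.55). SCNN1A, a subunit of the epithelial sodium channel that these proteases can activate, differed by -0.34, and F2RL1, encoding the protease-activated receptor PAR2, by 0.12.

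Per kilobase of exon, ST14 had the highest level of the 10 and EPN3 the lowest in both fractions. Mean normalized counts per kilobase in CD24low libraries were 500.2 for ST14, 214 for AP1M2, 207 for RAB25, 121 for LLGL2 and 102 for PATJ. They were 69.9 for CRB3, 60.8 for MARVELD2, 48.3 for PRSS8, 39.6 for MARVELD3 and 23.6 for EPN3. In CD24high libraries the order was the same, with 769 for ST14 at the top and 53.1 for EPN3 at the bottom. In CD24low libraries only ST14 and its neighbour AP1M2 were separated beyond the range of the libraries. In CD24high libraries RAB25 from LLGL2 and PATJ from CRB3 were separated as well, and all other neighbours in the order overlapped.

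Relative to a partner gene measured in the same library, 5 of 6 pairs were lower in every CD24low library than in every CD24high library. Such a ratio does not depend on library scaling, but it does depend on the partner. LLGL2 and ST14 overlapped between groups on their own, and the partners LLGL1, MPDZ and AP1M1 were themselves higher without overlap. The genes were chosen with earlier results of these data known, and no share over other gene pairs was taken. The log2 ratio of AP1M2 to AP1M1 was -1.24, -1.45 and -0.04 in CD24low replicates 1, 2 and 3, against 0.28, 0.58 and 0.48 in CD24high replicates. CD24low replicate 3 lay near the CD24high libraries and the other CD24low libraries lay further below. The mean ratios differed by -1.36 for AP1M2 to AP1M1, -1.47 for EPN3 to EPN1, -1.18 for PATJ to MPDZ, -1.06 for LLGL2 to LLGL1 and -0.35 for ST14 to SPINT1. For each, a two-sided exact permutation test gave p = 0.1 (0.12 adjusted over the 6 pairs), which is the lowest value possible with 3 libraries a group. The RAB25 to RAB11A ratio overlapped between groups (difference -0.42, exact permutation p = 0.2). Within libraries of low rRNA share these differences were -0.47, -0.58, -0.39, -0.19 and -0.27 in the same order, and 0.22 for RAB25 to RAB11A.

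**Figure D3:**
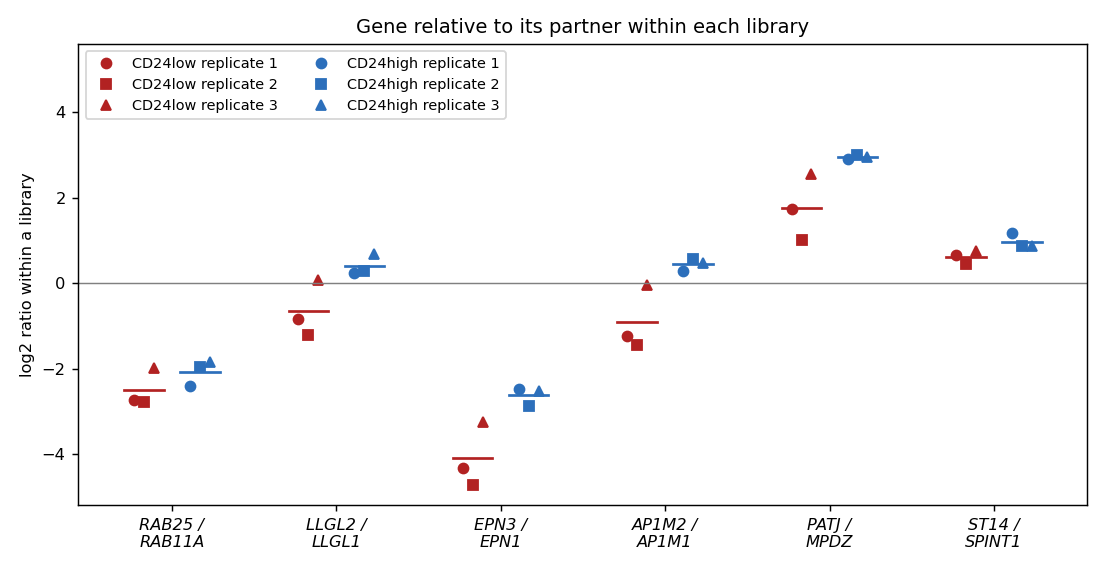
Log2 ratio of each gene to its partner gene in each library, CD24low left (red) and CD24high right (blue), with bars at the means of 3 libraries. The groups are separate for 5 pairs and overlap for RAB25 to RAB11A.

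Among 17 tested regulators of epithelial genes, DESeq2 called 2 epithelial factors lower and 3 mesenchymal factors higher in CD24low cells. None was called by limma, with 3 lower and 5 higher at an unadjusted p below 0.05. The splicing regulator ESRP1 and the transcription factor GRHL2, an activator of epithelial junction genes, were called lower, with differences of -0.86 and -0.87. ZEB1 had 247, 298 and 105 normalized counts in CD24low replicates 1, 2 and 3, against 76.3, 65.2 and 43.8 in CD24high replicates. ZEB2 had 305, 655 and 215 in CD24low and 55.6, 75.1 and 33.6 in CD24high replicates. Both were highest in CD24low replicate 2, the library where 9 of the 10 genes were lowest, and lowest in CD24high replicate 3, where 9 were highest. TWIST2 was the third gene called higher (difference 0.69). SNAI1 was not called but was higher in every CD24low library than in every CD24high library (difference 1.01). SNAI2 differed by 0.06 with overlapping groups and without a call. The part of these factors in the levels of the 10 genes was not tested.

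**Figure D4:**
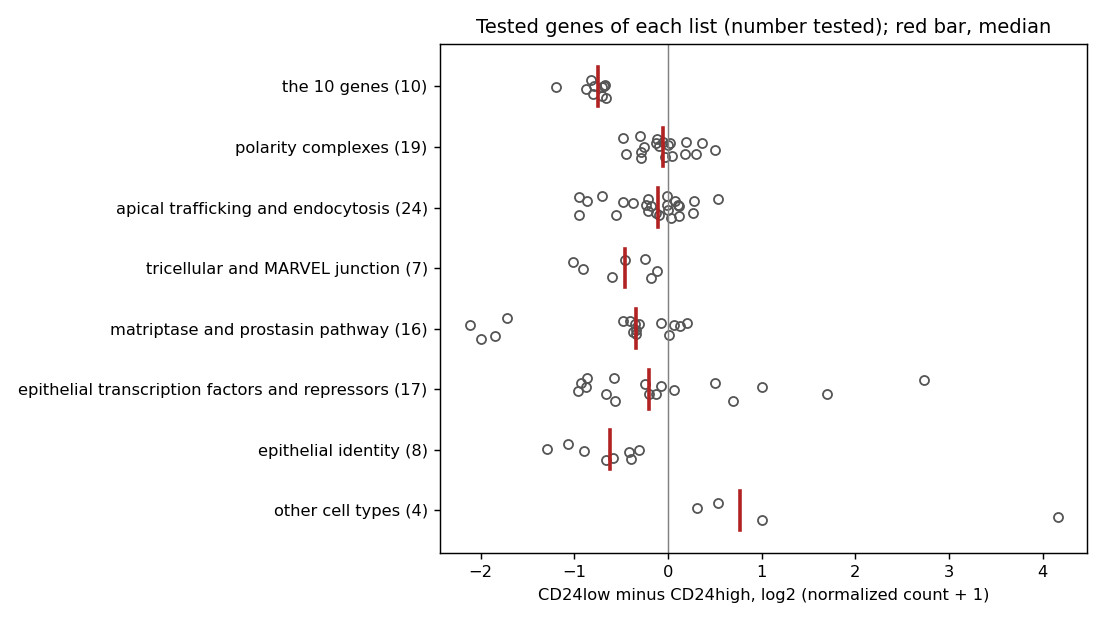
Log2 differences, CD24low minus CD24high, for tested genes of each list, with the number tested in brackets and the median as a red bar. The 10 genes lie between -1.20 and -0.66, while the other polarity complex genes lie between -0.48 and 0.50. Epithelial identity genes lie between -1.29 and -0.31, and tricellular and MARVEL junction genes between -1.01 and -0.11. Trafficking genes range from -0.95 to 0.53 and matriptase and prostasin pathway genes from -2.12 to 0.21. Epithelial transcription factors and repressors range from -0.96 to 2.73, and the 4 tested markers of other cell types from 0.31 to 4.16.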

How the data were processed

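RNA-seq of 3 CD24low and 3 CD24high libraries was used, grouped by their titles. Each deposited value is a signal, a read count scaled by the authors with DESeq2's factor for that library, per the deposited table and the submitters' processing notes. Those notes name STAR 2.5.2, R 3.5.0 and hg38. For the counter and its strand setting, nothing is given in the sources used here. Symbols, coordinates and exon lengths came from GENCODE 29, which matched 58261 of 58381 IDs.

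Whole reads were recovered by dividing each library by the value of 1 read (0.83 to 1.46); 100% of values were whole within 0.1 reads. Counting error alone sets the floor of 3 reads. The main test was limma 3.58.1 (R 4.3.3) with trended variance on log2 (normalized count + 1), over 16047 genes with a mean of at least 10, with Benjamini-Hochberg adjustment and a threshold of 0.05. The pseudocount understates changes of low genes. DESeq2 1.42.0 called 402 genes and edgeR 4.0.16 called 0 on the recovered reads. These fits were tested on simulated data. Ratios used an exact permutation test. Between replicates, counts differed by more than sampling noise, so each library counted once.

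The genes and lists were chosen with earlier results of these data known. Genes named were the 10, their ratio partners, up to 3 per list and direction by limma p among those whose groups do not overlap, and the 5 most alike in profile; 1 gene so chosen is not reported here. CRB1, CRB2, MPP5, SCRIB, OCLN, LSR, EPN2, AP1B1, AP1G1, AP1S1, SCNN1A, F2RL1, SNAI1, SNAI2, other marker genes, CD24, genes overlapping the 10 and chromosomal neighbours were named after values were seen.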

Additional observations from a re-analysis of the deposited data

How the results depend on the processing

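The difference of each of the 10 genes stayed negative under all 17 alternatives, 170 of 170 values. Some were very small, down to -0.0045 for MARVELD3 among the libraries poor in rRNA reads. The difference crossed the threshold in 21 of the 170, namely 9 genes without CD24low replicate 3, 9 with the replicate block and 3 with DESeq2. The count of the 10 genes called, 0 in the main test, came to 3 by DESeq2 and 9 under the replicate block, and it ranged from 0 to 9 with 1 library left out. Genes called in all numbered 0, but 164 with no filter, 402 with DESeq2 and 716 with the replicate block (2.30% of genes lower), and 0 to 366 with 1 library left out. The cause was not tested. The replicate block rests on a shared number only. Deviations from the group means correlated at 0.27, 0.30 and 0.051 for numbers 1, 2 and 3. Pairs with unlike numbers correlated at -0.26 to 0.075, so numbers 1 and 2 stood above them. Number 3 did not, as CD24low replicate 3 correlated more with CD24high replicate 1 (0.075). For the ratios the block gave the same differences, and a sign-flip permutation over 3 pairs cannot go below p = 0.25. The median difference of the 10 was -0.14 among the libraries poor in rRNA reads and -1.27 among those rich in them. With 1 library left out it lay between -1.03 (CD24low replicate 3 left out) and -0.53 (CD24low replicate 2 left out). All 6 ratio differences stayed negative with other pseudocounts, under the block and with 1 library left out, but among the libraries poor in rRNA reads RAB25 to RAB11A was 0.22. Depth limits EPN3 and CRB3 most, with 80 and 83 reads in their lowest libraries.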

Other observations

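The nearest tested protein-coding genes on either side of the 10 genes, overlapping genes left out, did not share their difference as a group. Over 20 such neighbours, 12 had a negative difference, the median was -0.03, and 2 had an unadjusted limma p below 0.05. These were OCLN, 47962 bases from MARVELD2 and itself a tight junction gene (difference -1.01), and RSAD1 near EPN3 (0.38). KAT8, whose gene ends 40 bases from PRSS8, differed by 0.15, TSEN54, 341 bases from LLGL2, by -0.14, and RAD17, 264 bases from MARVELD2, by -0.14.

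Among 11460 genes averaging 100 or more normalized counts, the 5 whose log2 profile over the 6 libraries was most like the mean standardized profile of the 10 were MYO5B (Pearson r = 0.997), SH3TC2 (0.995), DSC2 (0.994), DSP (0.991) and TUBD1 (0.991). All are measured in the same 6 libraries, which differ in depth and rRNA share, so r is a description. DSC2 and DSP encode desmosome proteins and had differences of -0.79 and -0.46 (limma adjusted p = 0.19 for both). SH3TC2 and TUBD1 differed by -0.47 and -0.22.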
